A study of Stenocereus queretaroensis with 6 samples.

Results

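Hemoglobin and ethanolic fermentation transcripts were examined in cells of the columnar cactus *Stenocereus queretaroensis* kept in liquid suspension. They are the rows of a de novo transcript table whose best Swiss-Prot protein match is described as a hemoglobin, an alcohol dehydrogenase, a pyruvate decarboxylase or a lactate dehydrogenase, with cinnamyl alcohol dehydrogenases left out. This gave 119 of 170970 transcript clusters, a cluster being a set of assembled sequences counted as 1 feature, and they fall on 38 Swiss-Prot proteins, each called a hit below. The names alone select the rows, but the set was chosen by the measured 8% over 3% sucrose difference of its non-symbiotic hemoglobin in these same libraries. The difference between media is therefore given for every member as a description without a p-value.

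Plants carry hemoglobins that do not serve to move oxygen through the body. The class 1 non-symbiotic form holds oxygen very tightly, is known from several crops to be induced when oxygen is short, and turns nitric oxide into nitrate. Ethanolic fermentation serves cells whose respiration cannot keep up with glycolysis: pyruvate decarboxylase converts pyruvate to acetaldehyde, alcohol dehydrogenase reduces acetaldehyde to ethanol and returns NAD+ to glycolysis, and L-lactate dehydrogenase offers the alternative end product, lactate.

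Cells were grown in MS medium, a mineral medium for plant tissue culture, with 3% sucrose in 3 libraries and with 8% sucrose in the other 3 libraries, and the comparison asked which transcripts differ between the media. The sugar is the only difference that the labels spell out, and they give no culture age, plant line or oxygen supply. The library titles differ as well, with SqY at 3% and SqR at 8% sucrose, and what Y and R stand for is not given. Whatever they stand for cannot be told apart from the sugar. Whether libraries of the same medium are separate cultures is not stated either, and the text on extraction names only the first library of each medium, so the spread between libraries may be technical. Poly(A) RNA was sequenced as read pairs.

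The libraries held 35476032 to 41147265 counts, and the 119 clusters took 1.04% to 1.09% of them in every library. Levels are given as CPM, counts per library brought to the same total, with library sizes scaled by TMM factors (edgeR's correction for differing composition), and means carry the SD over 3 libraries. Across 85043 clusters that passed the filter on low counts, the median log2 fold change of 8% over 3% sucrose was 0.19. Summed by Swiss-Prot hit on the same library sizes, the median of 13187 hits was -0.32, so a hit with a log2 fold change of -0.32 lies at the middle of all hits. Markers of other cell states also moved: clusters of chlorophyll a-b binding proteins and the small subunit of Rubisco summed to between 886 and 925 CPM in libraries at 3% sucrose and between 43.7 and 45.2 CPM in those at 8%. Clusters of B-type and D3 cyclins and of proliferating cell nuclear antigen summed to between 304 and 328 CPM, then to between 195 and 208 CPM. Cellulose synthase subunits of lignified vessels summed to at most 3.62 CPM in a library. The part of the green and dividing cell states in the results below was not tested, and in bulk RNA fewer cells of a type and less RNA per cell cannot be told apart.

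Of the 119 clusters 81 passed the filter and 38 did not, among them 5 without a count in any library. Of the 81, 23 were called higher and 38 lower at 8% sucrose at an adjusted p under 0.05, and 20 did not pass. Over all tested clusters 29.1% were called higher and 25.6% lower. The values of the media did not overlap for 67 of the 81, against 67.6% of all tested clusters. The set was chosen with this contrast known, so nothing is read from these counts or from those of single families and hits below. Clusters that divide the reads of 1 gene are also not independent of each other. The median log2 fold change over the 81 was -0.67. The authors' deposited table marked 24 of the 119 as up and 39 as down, of which 21 and 37 were also called here in that direction and 0 in the opposite one.

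Of the 38 hits, 25 passed the filter, 7 were called higher, 15 lower and 3 did not pass. Over all 13187 hits 29.9% were called higher and 50.1% lower. Of the 119 clusters 8, on 6 hits, match proteins of *Escherichia coli* or *Shigella*, and none of these held more than 10 counts in a library. The pattern also took 3 clusters of proteins named after a member: 2 of leghemoglobin reductase, which in legumes reduces leghemoglobin, and 1 bacterial regulator of a lactate dehydrogenase operon. The leghemoglobin reductase hit stood at 0.591 ± 0.318 CPM with 3% sucrose and 1.70 ± 0.238 CPM with 8% (SD, n = 3).

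The plant hemoglobins had the highest ratio between the media of the 8 families. Summed over 15 clusters they stood at 279.5, 259 and 261 CPM in the libraries at 3% sucrose and at 3609, 3757 and 3670.0 CPM in those at 8% sucrose. Every library at 8% was above every library at 3%, and within a medium the values lay close together. The means were 266.5 ± 11.3 CPM (SD, n = 3) and 3679 ± 74.7 CPM (SD, n = 3), a ratio of 13.8.

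**Figure D1:**
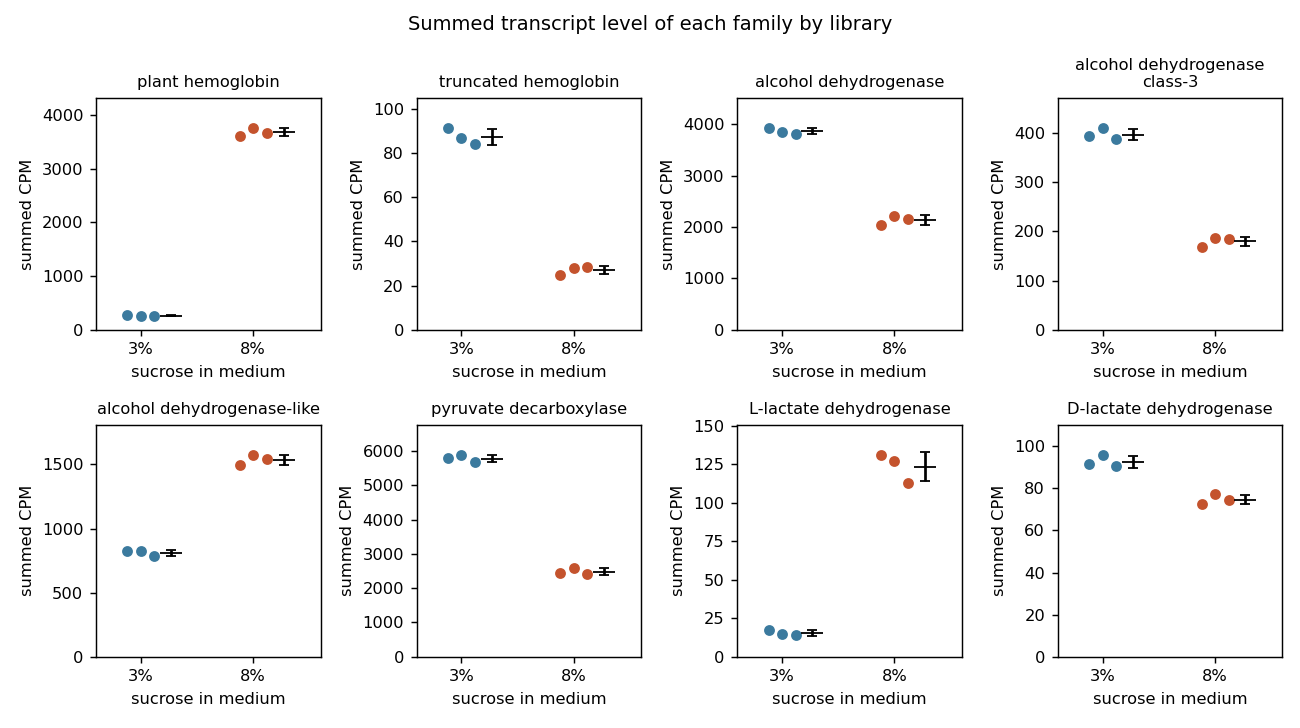
Summed level of each of 8 families in every library, in TMM-scaled CPM on axes that start at 0, with 1 point a library and the mean ± SD beside them (n = 3 a medium). Plant hemoglobin, alcohol dehydrogenase-like and L-lactate dehydrogenase transcripts were higher in every library at 8% sucrose, the other 5 families lower, and D-lactate dehydrogenase turned to a log2 fold change of 0.04 for its main hit when TMM factors were computed on summed hits.

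Nearly all of the hemoglobin signal came from 1 cluster. Cluster-2051.79794, whose closest Swiss-Prot protein is non-symbiotic hemoglobin 1 of cotton (Q947C5), stood at 268, 249 and 249.5 CPM at 3% sucrose and at 3538, 3685 and 3588 CPM at 8% sucrose. This was 95.9% of the family's level at 3% and 98.0% at 8%, and its log2 fold change was 3.82 ± 0.05 (SE). Ranked by counts among all clusters, it moved from places 481, 548 and 503 in the libraries at 3% sucrose to places 10, 11 and 9 at 8%. Its sequence is 4084 bp long and its predicted reading frame 714 bp, or 17.5% of it. Reads on the rest of the sequence were counted too, and whether it joins a second transcript was not tested.

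The other 2 clusters on the same cotton protein are of like length, 4303 and 4195 bp, and hold far fewer reads. Cluster-2051.74589 had 3.97, 2.96 and 5.84 CPM at 3% sucrose and 31.9, 33.2 and 42.2 CPM at 8%, and Cluster-2051.78951 had 4.34, 3.13 and 2.45 CPM and then 35.3, 34.1 and 36.5 CPM. Both followed the main cluster in direction, with log2 fold changes of 3.07 ± 0.26 and 3.42 ± 0.20 (SE). Reads of 1 gene, its alleles or close copies may be divided between such clusters.

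Hemoglobin clusters on other proteins were scarce, and 1 of them was called. Cluster-2051.70043, closest to hemoglobin-2 of *Casuarina glauca* (P23244), was at 1.13, 1.81 and 1.39 CPM at 3% sucrose and 2.61, 2.94 and 2.23 CPM at 8%. Its log2 fold change of 0.85 ± 0.28 (SE) was called, but the call was lost without any 1 of 5 libraries, all but replicate 2 at 3% sucrose, where it ranged from 0.64 to 1.00 over the 6 omissions. Cluster-2051.91383 and Cluster-2051.79784, on the same *Casuarina* protein, were lower at 8%, with log2 fold changes of -1.57 ± 0.98 and -1.06 ± 0.47 (SE), and neither passed. Cluster-2051.58593, closest to a non-symbiotic hemoglobin 1 of alfalfa (Q9FVL0), held 0.914 ± 0.289 CPM (SD, n = 3) and 0.586 ± 0.434 CPM (SD, n = 3), and its media overlapped. The other 8 plant hemoglobin clusters were below the filter, 1 of them with no count at all. The 2 clusters of non-symbiotic hemoglobin 2, the class 2 form, had 0 counts at 3% sucrose and summed to 0.175 ± 0.0766 CPM (SD, n = 3) at 8%, where 3 counts are worth 0.0776 to 0.0821 CPM in a library.

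Truncated hemoglobins went the other way. They form a separate plant lineage with a shortened globin fold, and all 5 clusters match two-on-two hemoglobin-3 of *Arabidopsis* (Q67XG0). Their sum was 91.2, 86.7 and 84.3 CPM at 3% sucrose and 24.9, 28.01 and 28.3 CPM at 8%, so that every library at 8% was below every library at 3%. The means, 87.4 ± 3.55 and 27.1 ± 1.90 CPM (SD, n = 3), gave a ratio of 0.310. Cluster-2051.60469 carried 95.5% of this level at 3% sucrose, with a log2 fold change of -1.70 ± 0.07 (SE). Of the rest that passed the filter, Cluster-2051.25610 gave -1.66 ± 0.39, Cluster-2051.60464 gave -1.51 ± 0.78 without passing, and Cluster-2051.60468 gave -1.36 ± 0.43. The call of Cluster-2051.60468, a cluster of about 1 CPM, was lost without any 1 of 5 libraries, all but replicate 3 at 3% sucrose, with -1.62 to -1.07 over the 6 omissions.

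**Figure D2:**
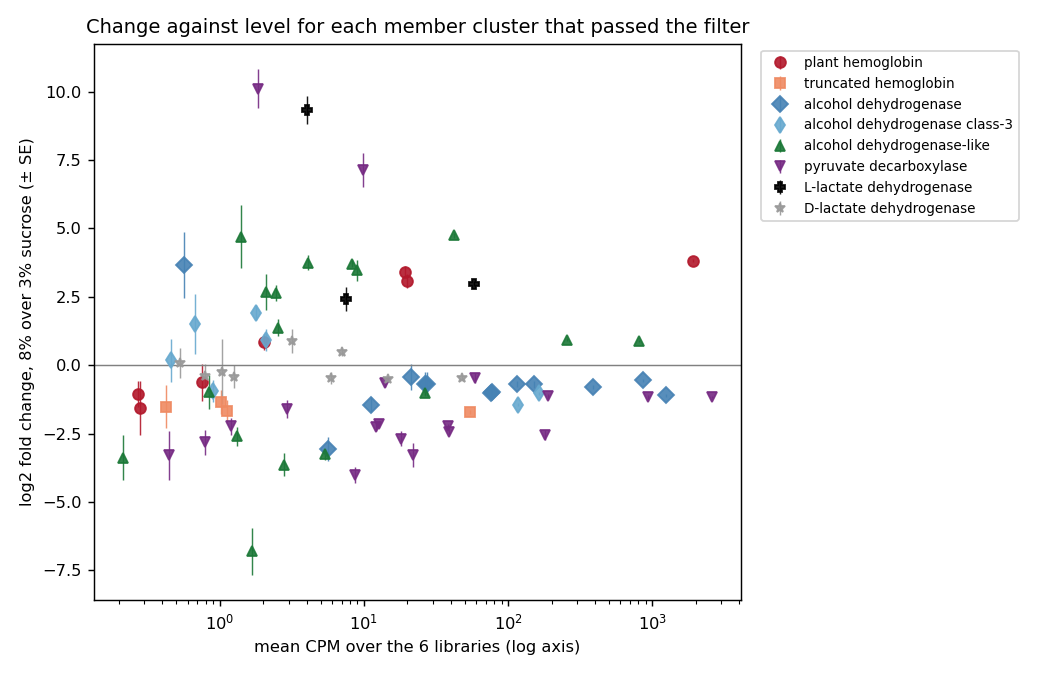
Log2 fold change of 8% over 3% sucrose (± SE) against mean CPM on a log axis for the member clusters that passed the filter, 1 point a cluster, coloured by family. The most abundant hemoglobin cluster lies alone at 1930 CPM and 3.82, while the alcohol dehydrogenase and pyruvate decarboxylase clusters above 100 CPM lie below 0.

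Pyruvate decarboxylase, the enzyme that commits pyruvate to ethanol, was lower at 8% sucrose. Its 23 clusters summed to 5781, 5879 and 5678 CPM at 3% and to 2433, 2602 and 2407 CPM at 8%. The media did not overlap, and the means of 5779 ± 100 CPM (SD, n = 3) and 2481 ± 105 CPM (SD, n = 3) gave a ratio of 0.429. Of 19 tested clusters 2 were called higher and 16 lower, against 29.1% and 25.6% of all tested clusters.

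Most of those counts belonged to 10 clusters on pyruvate decarboxylase 1 of *Arabidopsis* (O82647), which went from 5584 ± 97.0 to 2419 ± 105 CPM. The log2 fold change of this hit, -1.21, became -0.86 with TMM factors computed on summed hits. Its 3 most abundant clusters shared nearly the same change. Cluster-2051.79055 was at 3582, 3601 and 3528 CPM at 3% sucrose and 1564, 1685 and 1552 CPM at 8%, with a log2 fold change of -1.16 ± 0.04 (SE). Cluster-2051.79040 gave -1.16 ± 0.06 and Cluster-2051.77859 gave -1.12 ± 0.07. Less abundant clusters on the same protein spread more widely, from Cluster-2051.79035 at 39.8 ± 7.20 and 4.10 ± 2.28 CPM (log2 fold change -3.28 ± 0.45) to Cluster-2051.83054 at 68.9 ± 9.96 and 49.9 ± 12.1 CPM, which did not pass.

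The minor pyruvate decarboxylase hits differed more strongly between the media. Pyruvate decarboxylase 4 (Q9M040) was at 144, 149 and 145 CPM at 3% sucrose and 27.4, 27.3 and 26.1 CPM at 8%, a ratio of 0.185 with little spread in either medium. Pyruvate decarboxylase 2 of *Arabidopsis* (Q9FFT4) went from 20.9 ± 1.69 to 4.69 ± 0.505 CPM, and that of tobacco (P51846) from 20.1 ± 1.13 to 4.27 ± 0.698 CPM. Both rest on fragments, of 376 bp and 386 bp for the clusters that carry them. The 3 clusters of pyruvate decarboxylase 4 are also short, at 745, 1207 and 507 bp, against a reading frame of 1830 bp in Cluster-2051.79055. Whether these hits are genes apart from the main one was not tested.

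Against the rest of the family, pyruvate decarboxylase 1 of pea (P51850) was higher at 8% sucrose. Its 4 clusters summed to 2.18, 2.04 and 2.77 CPM at 3% and 20.2, 23.6 and 26.7 CPM at 8%, and the clusters themselves split. Cluster-2051.45641, a sequence of 2166 bp, went from 0.137 ± 0.163 to 19.5 ± 2.04 CPM, and Cluster-2051.45643 had no count at 3% and 3.70 ± 1.14 CPM at 8%, at least 44.6-fold higher against 3 counts in each library at 3%. Cluster-2051.45642 and Cluster-2051.30640 were lower, with log2 fold changes of -2.82 ± 0.45 and -3.28 ± 0.90 (SE).

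Alcohol dehydrogenase, which completes the route to ethanol, showed a smaller difference in the same direction. The 16 clusters named as plain alcohol dehydrogenases summed to 3927, 3857 and 3822 CPM at 3% sucrose and 2041, 2222 and 2155 CPM at 8%, again without overlap. The means were 3869 ± 53.5 and 2140 ± 91.4 CPM (SD, n = 3), a ratio of 0.553. Of 13 tested clusters 1 was called higher and 9 lower, against 29.1% and 25.6% of all tested clusters.

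The abundant hit here was the alcohol dehydrogenase of apple (P48977), at 3157 ± 72.9 and 1740 ± 56.5 CPM over 5 clusters, all called lower. Its largest pair did not change alike. Cluster-2051.79486 was at 1725, 1693 and 1700 CPM at 3% sucrose and 800, 807 and 769 CPM at 8%, a log2 fold change of -1.11 ± 0.04 (SE). Cluster-2051.77620 was at 1096, 975 and 992 CPM and then 660, 733 and 686 CPM, which is -0.56 ± 0.06. Alcohol dehydrogenase 2 of rice (Q4R1E8) went from 550.4 ± 19.5 to 319.8 ± 33.2 CPM, mostly through Cluster-2051.71531 with a log2 fold change of -0.81 ± 0.07. The strawberry protein (P17648) went from 118 ± 13.2 to 56.0 ± 9.11 CPM. With TMM factors computed on summed hits, the log2 fold change of P48977 moved from -0.86 to -0.51. That of Q4R1E8 moved from -0.78 to -0.43 and that of P17648 from -1.07 to -0.72.

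One alcohol dehydrogenase hit turned on a single library. The second rice alcohol dehydrogenase 2 (Q0ITW7), a lone cluster, was at 14.5, 45.1 and 42.2 CPM at 3% sucrose and 15.8, 18.7 and 28.8 CPM at 8%. Replicate 1 at 3% lay below all libraries at 8%, the media overlapped, and the log2 fold change of -0.69 ± 0.39 (SE) did not pass. Without that library it was -1.10 and was called. The hit called higher, class-P alcohol dehydrogenase of *Arabidopsis* (P06525), reached only 1.06 ± 0.228 CPM at 8% sucrose.

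Class-3 alcohol dehydrogenases act on S-nitrosoglutathione and on the glutathione adduct of formaldehyde rather than on ethanol. Their 9 clusters summed to 394, 409.7 and 387 CPM at 3% sucrose and 169, 186 and 184 CPM at 8%, a ratio of 0.452 without overlap. The rice protein (A2XAZ3) went from 223 ± 5.70 to 112 ± 6.04 CPM and the *Arabidopsis* protein (Q96533) from 174 ± 6.04 to 67.4 ± 3.25 CPM. The main clusters, Cluster-2051.59686 and Cluster-2051.43256, gave log2 fold changes of -1.03 ± 0.06 and -1.45 ± 0.06 (SE). The third by level, Cluster-2051.59685, held 1.45 ± 0.399 and 2.75 ± 1.25 CPM and did not pass. Of 7 tested clusters 1 was called higher and 2 lower, against 29.1% and 25.6% of all tested clusters, and 4 did not pass. Their median log2 fold change was 0.18. The cluster called higher, Cluster-2051.30574 on the rice protein, held 0.743 ± 0.0983 and 2.84 ± 0.494 CPM.

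Alcohol dehydrogenase-like proteins are relatives whose substrates are mostly not established, and they divided by hit. Their 26 clusters summed to 826, 824 and 784 CPM at 3% sucrose and 1497, 1573 and 1546 CPM at 8%, a ratio of 1.90 without overlap. Alcohol dehydrogenase-like 7 (Q9FH04) carried this, from 769.8 ± 22.7 to 1520.0 ± 37.3 CPM. Alcohol dehydrogenase-like 6 (Q8LEB2) was lower, from 41.1 ± 1.03 to 18.4 ± 1.36 CPM. Of its 4 tested clusters 3 were called lower and 0 higher, against 25.6% and 29.1% of all tested clusters.

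Within alcohol dehydrogenase-like 7, 10 of 13 tested clusters were called higher and 3 lower, against 29.1% and 25.6% of all tested clusters. The abundant pair changed alike: Cluster-2051.77989 was at 577, 574 and 550.1 CPM at 3% sucrose and 1015, 1077 and 1046 CPM at 8%, and Cluster-2051.78184 gave nearly the same log2 fold change, 0.93 ± 0.05 against 0.88 ± 0.04 (SE). Cluster-2051.27279 stood apart from them, at 2.97, 3.16 and 2.88 CPM at 3% sucrose and 75.7, 83.9 and 82.7 CPM at 8%. Its ratio of 26.9 was above that of the main hemoglobin cluster, 14.1. The 3 lower clusters had at most 10 CPM in a library, and the most abundant of them, Cluster-2051.31902, went from 9.66 ± 0.326 to 1.005 ± 0.242 CPM.

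L-lactate dehydrogenase, which makes lactate from pyruvate, was scarce at 3% sucrose and higher in every library at 8%. Its clusters summed to 17.6, 14.7 and 14.1 CPM at 3% sucrose and 131, 127 and 113 CPM at 8%, a ratio of 7.99. All 3 tested clusters were called higher, against 29.1% of all tested clusters. Barley L-lactate dehydrogenase A (P22988) went from 15.4 ± 1.95 to 115 ± 9.64 CPM, mostly through Cluster-2051.59237 at 13.4, 13.2 and 12.4 CPM and then 110.6, 105 and 91.9 CPM. Cluster-2051.67976 was uneven at 3% sucrose, with 4.18 CPM in replicate 1 and 1.31 and 1.67 in the others, and even at 8%, with 12.5 to 12.9 CPM. Cluster-2051.116529, on barley L-lactate dehydrogenase B (P22989), had 1 count in a single library at 3% sucrose and 8.08 ± 0.520 CPM at 8%, a ratio whose 95% exact counting interval runs from 157 to 34704. That interval covers counting error only.

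D-lactate dehydrogenase of mitochondria oxidises D-lactate, which arises when methylglyoxal is detoxified, and is not a step of ethanol formation. The 14 clusters on it (Q94AX4) summed to 91.0, 95.5 and 90.3 CPM at 3% sucrose and 72.3, 77.1 and 74.0 CPM at 8%. These do not overlap, but the log2 fold change of -0.31 ± 0.05 (SE) lies at the median of all hits, and with TMM factors computed on summed hits it turned to 0.04. Cluster-2051.91727 and Cluster-2051.91729 gave -0.45 ± 0.09 and -0.50 ± 0.11 (SE). Cluster-2051.55256 gave 0.48 ± 0.16, a call that was lost without any 1 of 5 libraries, all but replicate 3 at 8% sucrose, with 0.32 to 0.55 over the 6 omissions.

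**Figure D3:**
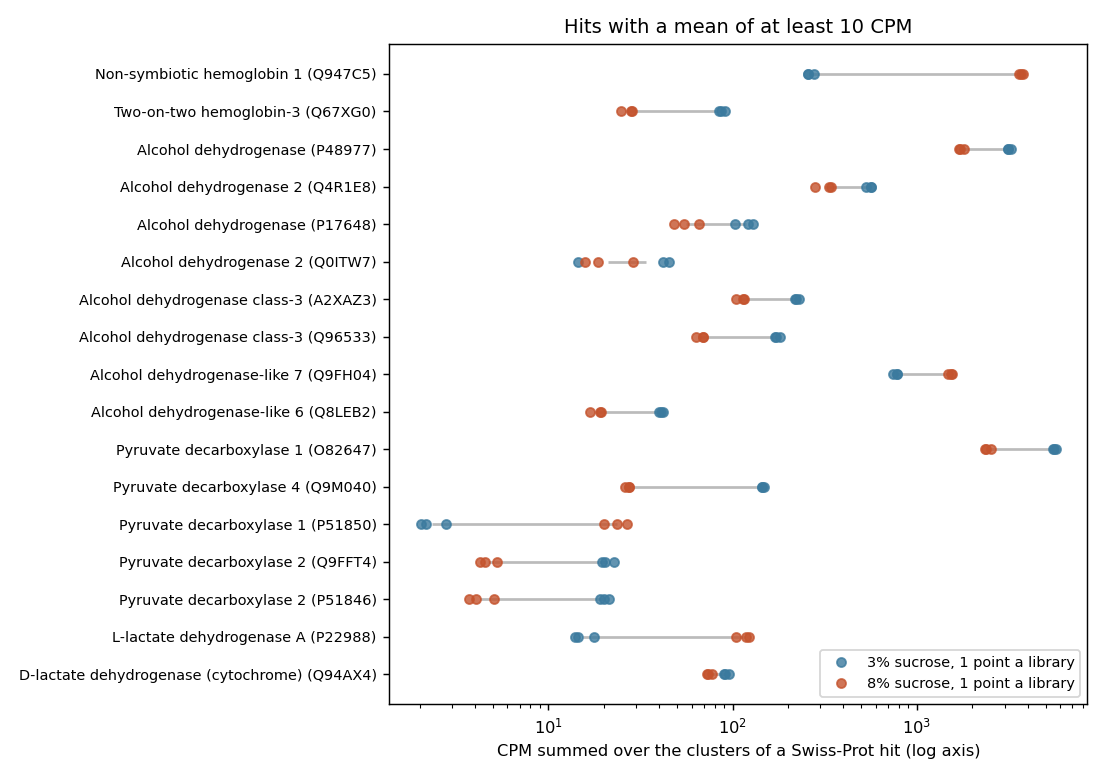
CPM summed over the clusters of each member hit with a mean of at least 10 CPM, on a log axis, with 1 point a library and a grey line between the means of the media. The media separate for every hit shown except the second rice alcohol dehydrogenase 2 (Q0ITW7), where 1 library at 3% sucrose at 14.5 CPM falls below all libraries at 8%.

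Levels can be set side by side between genes only per transcript length, for which the authors' FPKM (fragments scaled by cluster length and library total) was used. In FPKM the plant hemoglobins went from 74.1, 67.5 and 70.8 at 3% sucrose to 997, 1023 and 1030.0 at 8%. Pyruvate decarboxylase went from 2484, 2550.0 and 2497 to 1051, 1108 and 1070.0 FPKM. At 3% sucrose the order was thus alcohol dehydrogenase at 2946 ± 29.2 FPKM, pyruvate decarboxylase at 2511 ± 35.1, alcohol dehydrogenase-like at 555 ± 7.38, class-3 at 197 ± 4.39, truncated hemoglobin at 114 ± 3.44, D-lactate dehydrogenase at 111 ± 3.08, plant hemoglobin at 70.8 ± 3.30 and L-lactate dehydrogenase at 7.67 ± 0.515 (SD, n = 3).

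At 8% sucrose alcohol dehydrogenase still led with 1812 ± 77.1 FPKM (SD, n = 3). Alcohol dehydrogenase-like at 1156 ± 30.7, pyruvate decarboxylase at 1077 ± 29.0 and plant hemoglobin at 1017 ± 17.2 FPKM followed close together. The order of the last pair depends on what is summed: the main pyruvate decarboxylase hit (O82647) alone was at 883 ± 27.3 FPKM, below hemoglobin. Class-3 at 101 ± 6.20 and D-lactate dehydrogenase at 93.3 ± 2.23 FPKM overlapped, as truncated hemoglobin and D-lactate dehydrogenase did at 3% sucrose. L-lactate dehydrogenase, at 72.2 ± 4.68, had passed truncated hemoglobin, at 39.2 ± 3.15 FPKM. The hemoglobin value is per the full 4084 bp of its main cluster, not per reading frame, and FPKM is raised for short fragments such as those of pyruvate decarboxylase 2.

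**Figure D4:**
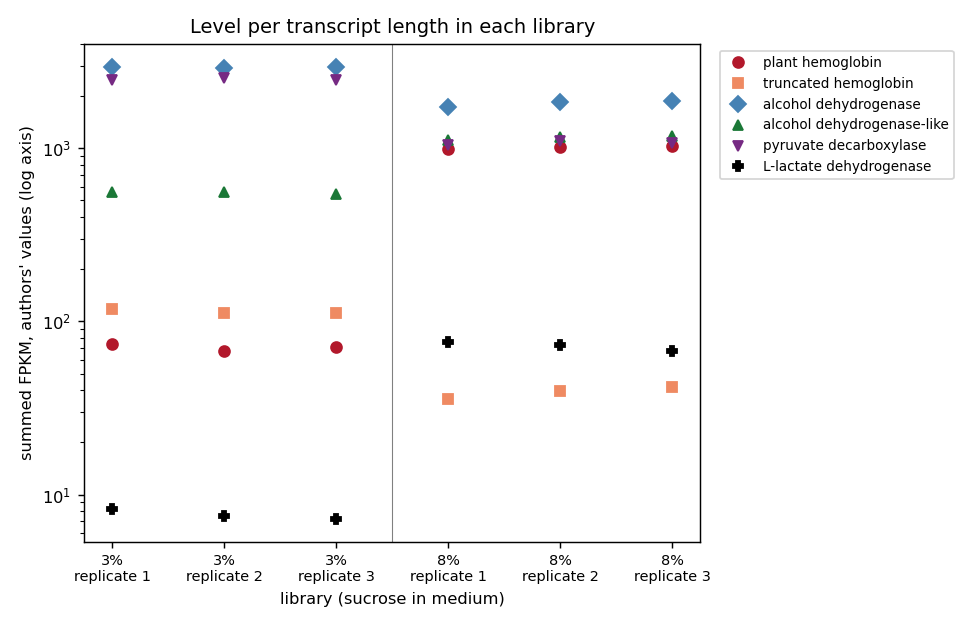
Authors' FPKM summed over each of 6 families in every library, on a log axis, with 1 marker a family and library. Plant hemoglobin lies under truncated hemoglobin at 3% sucrose (70.8 against 114 FPKM) and beside pyruvate decarboxylase at 8% (1017 against 1077 FPKM).

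A ratio within a library does not depend on how libraries are scaled. Plant hemoglobin CPM over the summed CPM of all 6 enzyme families, with the class-3, alcohol dehydrogenase-like and D-lactate dehydrogenase members included, was 0.0253, 0.0234 and 0.0242 at 3% sucrose and 0.569, 0.554 and 0.567 at 8%. The ratio was therefore 23.2-fold higher at 8%, with no overlap and an SD of at most 0.00817 in a medium. Against the core enzymes alone, alcohol dehydrogenase, pyruvate decarboxylase and L-lactate dehydrogenase, it was 28.1-fold higher, and in FPKM 21.1-fold higher against all 6 families. Such ratios show unequal change and not which side changed. L-lactate over alcohol dehydrogenase, the balance of the fermentation end products at transcript level, was 0.00449, 0.00380 and 0.00369 at 3% sucrose and 0.0641, 0.0571 and 0.0523 at 8%, which is 14.5-fold higher.

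Transcripts closest in pattern to the summed plant hemoglobins were sought among 8307 other hits of at least 10 CPM, by the root mean square difference of log2 CPM centred on the 6 libraries. The closest, at 0.0667, was an 18.1 kDa class I heat shock protein, a small chaperone, at 223, 187 and 186 CPM at 3% sucrose and 2476, 2719 and 2741 CPM at 8%. Cytochrome P450 710A1, a sterol desaturase, followed at 0.0772, with 42.8 ± 0.623 and 633 ± 34.2 CPM. Then came inositol phosphorylceramide glucuronosyltransferase 1, which builds plant sphingolipids, at 0.0834, subunit 4 of the ER membrane protein complex at 0.0847 and growth-regulating factor 1 at 0.107. With 3 libraries in each of 2 media, likeness here is mostly a like ratio between media.

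Among the neighbouring pathways, listed by protein name, more clusters listed for the supply of pyruvate and the use of acetaldehyde were called lower than higher. Counts here are clusters called at an adjusted p under 0.05 in edgeR's quasi-likelihood test, to be read against the 29.1% higher and 25.6% lower of all clusters. Of 59 pyruvate kinase and dikinase clusters 7 rose and 24 fell. The cytosolic pyruvate kinase 1 hit of rice (Q2RAK2) fell from 844 ± 37.4 to 504 ± 29.9 CPM (adjusted p = 2.8e-06). The soybean cytosolic isozyme (Q42806), at 679 ± 17.0 and 615 ± 19.6 CPM, had a log2 fold change of -0.14 that turned to 0.01 with library totals and 0.21 with TMM factors computed on summed hits.

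Of 30 clusters named as aldehyde dehydrogenase of family 2 or 7, acetyl-CoA synthetase or acetate ligase, 6 rose and 14 fell. Whether each of them acts on acetaldehyde or acetate was not checked. Mitochondrial aldehyde dehydrogenase 2B7 (Q8S528), which oxidises acetaldehyde to acetate, stood at 418 ± 17.8 and 455 ± 26.2 CPM and did not pass (adjusted p = 0.082). Its log2 fold change of 0.12 became 0.28 with library totals (adjusted p = 0.00092) and 0.47 with TMM factors computed on summed hits (adjusted p = 3.1e-05), and both were called. The peroxisomal acetate ligase AAE7 (Q8VZF1) fell from 265 ± 15.9 to 83.8 ± 1.84 CPM (adjusted p = 1.7e-08). Of 19 alanine aminotransferase clusters, which turn pyruvate into alanine under low oxygen, 2 rose and 6 fell. The 2 became 0 to 4 when single libraries were left out, each of the 6 omissions moving that count. The hit of alanine aminotransferase 2 (P34106) had a log2 fold change of 0.20 ± 0.06 (SE, adjusted p = 0.020), which became 0.55 with TMM factors computed on summed hits (adjusted p = 6.8e-05) and lost its call at 0.14 with DESeq2 size factors (adjusted p = 0.097). The mitochondrial form 1 (F4I7I0) gave -0.18 ± 0.06, turning to 0.17 with TMM factors computed on summed hits.

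Sucrose synthase, the cleavage route that costs less ATP than invertase, had 4 clusters that rose and 5 that fell of 15 tested, and the 4 became 2 without replicate 3 at 3% or replicate 3 at 8% sucrose. Its main hit (P13708) fell from 1434 ± 42.6 to 773 ± 40.1 CPM (adjusted p = 3.4e-07). The second (Q42652) went from 400 ± 8.82 to 290 ± 31.0 CPM and fell (adjusted p = 0.00045), a call that TMM factors computed on summed hits removed (adjusted p = 0.19).

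Of 34 oxygen-sensing clusters 7 rose and 14 fell. RAP2-2 (Q9LUM4), a group VII ethylene response factor whose breakdown depends on oxygen, fell from 2399 ± 68.7 to 1586 ± 50.4 CPM (adjusted p = 1.7e-06). Its log2 fold change of -0.60 became -0.25 with TMM factors computed on summed hits. Plant cysteine oxidase 2 (Q8LGJ5), of the enzymes that mark such factors for breakdown, stood at 345 ± 29.7 and 328 ± 5.81 CPM and did not pass (adjusted p = 0.34). Its log2 fold change of -0.07 turned to 0.09 with library totals and to 0.28, which was called (adjusted p = 0.0045), with TMM factors computed on summed hits. Of 25 clusters of universal stress proteins, a family with members known to respond to stress, 9 rose and 12 fell, and the 9 became 5 without replicate 2 at 3% sucrose or replicate 1 or 3 at 8%. Universal stress protein PHOS34 (Q8L4N1) fell from 1621 ± 48.3 to 466 ± 17.4 CPM (adjusted p = 3.8e-09), and the universal stress protein A-like hit (Q8LGG8) from 456 ± 14.7 to 312 ± 7.93 CPM (adjusted p = 6.3e-06). The log2 fold change of Q8LGG8, -0.55, became -0.20 with TMM factors computed on summed hits. Of 4 tested hits of this family 2 were called lower and 2 higher. The higher ones were Q57951, from 219 to 461 CPM, and PHOS32 (Q8VYN9), from 96.4 to 134 CPM.

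Nitric oxide is the substrate of class 1 hemoglobin, and its supply and the reduction of hemoglobin were approached by protein name. Of 37 clusters named for nitrate reductase, monodehydroascorbate reductase, nitronate or nitric oxide, 8 rose and 20 fell. Whether each supplies nitric oxide or reduces hemoglobin was not checked. Nitrate reductase (P23312), which also forms nitric oxide from nitrite, was at 398, 477 and 449 CPM at 3% sucrose and 29.2, 25.8 and 22.0 CPM at 8%. It fell by 4.11 on the log2 scale (adjusted p = 5.0e-09), with every library at 8% below every library at 3%. Monodehydroascorbate reductase (Q42711), which in barley reduces oxidised hemoglobin, fell from 1538 ± 29.9 to 671 ± 34.9 CPM (adjusted p = 4.5e-08).

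Alternative respiration and heme synthesis were the lists with more clusters higher than lower, though by hit heme synthesis, like all hits together, had more lower than higher. Of 53 clusters of alternative oxidase and alternative NAD(P)H dehydrogenases 25 rose and 16 fell. Ubiquinol oxidase 1 (Q41224), the alternative oxidase that passes electrons to oxygen without pumping protons, was at 47.7, 32.5 and 37.6 CPM at 3% sucrose and 689, 672 and 629 CPM at 8%, a ratio of 16.9 (adjusted p = 1.1e-08). The external dehydrogenase B2 (Q94BV7) rose from 113 ± 5.78 to 178 ± 11.4 CPM (adjusted p = 1.4e-05).

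Heme is the group that any hemoglobin must bind, and of 71 clusters for its synthesis 28 rose and 11 fell, with a sum of 626 ± 16.8 CPM in the 3% medium and 1272 ± 69.8 CPM in the 8% medium (SD, n = 3). Glutamyl-tRNA reductase 1 (P93111), the controlled first step shared with chlorophyll, rose from 147 ± 3.48 to 619.5 ± 61.4 CPM (adjusted p = 1.9e-08). Ferrochelatase-2 (P42045), which inserts iron to make heme, was at 56.5, 59.9 and 55.8 CPM and then 273, 290.5 and 265 CPM, and rose by 2.27 ± 0.06 (SE) on the log2 scale (adjusted p = 3.3e-09). Summed by hit, 6 of 19 tested hits rose and 10 fell, to be read against the 29.9% higher and 50.1% lower of all hits. Uroporphyrinogen decarboxylase 2 (O22886), a middle step of the route resting on 1 cluster, fell from 57.7 ± 2.75 to 8.79 ± 0.657 CPM (adjusted p = 3.8e-09). The other ferrochelatase hits were divided. A ferrochelatase-2 hit (A2Y3Q5) fell from 46.2 ± 1.27 to 19.7 ± 1.55 CPM (adjusted p = 2.6e-07). Another ferrochelatase-2 hit (P42044) rose from a mean of 6.80 to 76.9 CPM (adjusted p = 3.7e-09). Ferrochelatase-1 (Q69TB1) rose from a mean of 1.06 to 16.9 CPM (adjusted p = 3.0e-06). Chlorophyll a-b binding protein (P12333), of the green tissue list, fell over the same contrast from 600.2 ± 16.5 to 7.80 ± 0.762 CPM (adjusted p = 2.8e-10), with 20 of 27 clusters of that list lower and 1 higher (0 without any 1 of 5 libraries, all but replicate 2 at 3% sucrose).

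**Figure D5:**
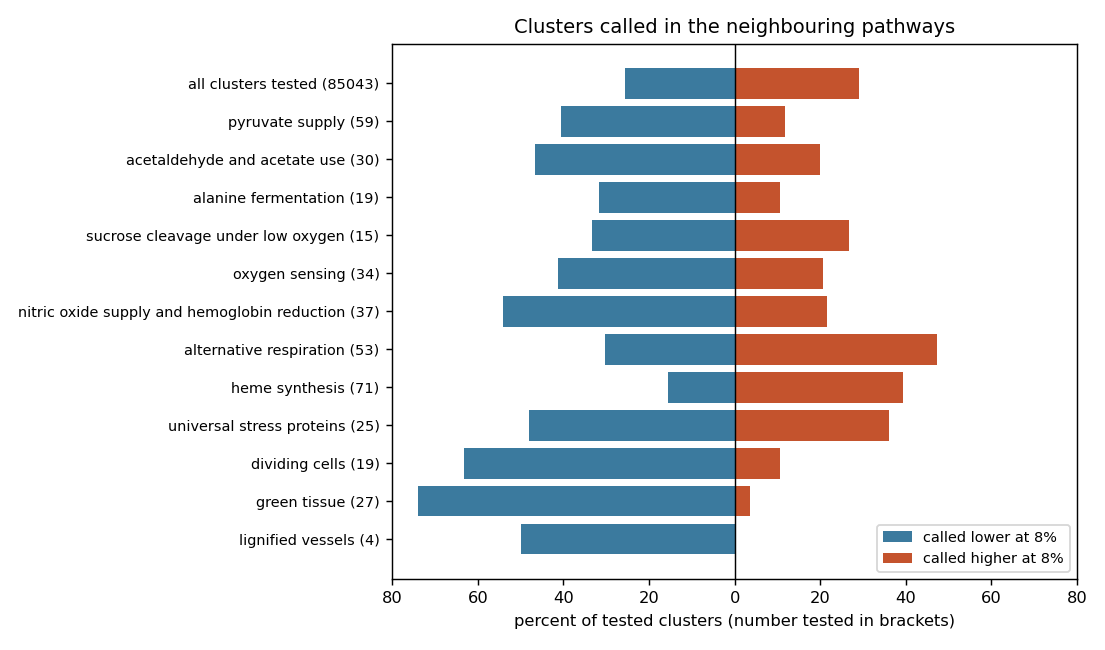
Share of tested clusters called higher (right) and lower (left) at 8% sucrose in 12 neighbouring lists and, in the top bar, among all 85043 tested clusters, in percent. Only heme synthesis and alternative respiration show more clusters higher than lower among the 12 lists, with 28 against 11 and 25 against 16.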

How the data were processed

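The submitters' processing notes list Bowtie2, FastQC, RSEM and Trimmomatic 0.36, without their roles. How the reads were assembled, annotated and tested by the authors is not given in the sources used here. The kit, NEBNext Ultra, does not mark strand, so reads of antisense transcripts cannot be told apart. Per the file headers, the authors deposited an expected count per cluster and library (45.4% of the values are not whole), FPKM, cluster length, alignment score and E-value of the best protein hit, and a log2 ratio with its q-value. The authors' score and E-value entered no result, and the deposited log2 ratio and q-value only the count of the authors' calls. No sequences were used here.

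Expected counts were rounded and filtered with filterByExpr, scaled with TMM factors (0.936 to 0.966 at 3% sucrose, 1.04 to 1.07 at 8%) and tested with the quasi-likelihood test of edgeR 4.0.16 in R 4.3.3, over all 6 libraries with no covariate, with Benjamini-Hochberg adjustment over the whole table and calls at under 0.05. edgeR's common coefficient of variation came to 41.4% over clusters and 10.9% over hits. Counts summed by Swiss-Prot hit were fitted alike on the library sizes of the cluster fit. The SE of a log2 fold change was derived as its absolute value over the square root of the test's F statistic. A count of 0 allows up to 3 counts, worth 0.0776 to 0.0882 CPM in a library, and such limits cover counting error only. Replicates differed by more than sampling noise, with 8.72 to 16.5 as the chi-square per cluster, and all 6 libraries were kept as separate samples. The fits were also run on simulated counts with the same spread for every cluster and hit, not the spread of these data. That run checks the fitting code and not the calls above.

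Named with values were the 3 most abundant clusters of each family, every hemoglobin cluster past the filter, every member hit of at least 10 CPM, the 2 most abundant hits of each neighbouring list and the 5 hits closest to plant hemoglobin. Exceptions were the green tissue list, with only its most abundant hit named, and the lists of dividing cells and lignified vessels, with none named. Other clusters and hits named were chosen after their values were seen. The members and lists were chosen with earlier results of these data known. Alternatives were DESeq2 1.42.0, its size factors, library totals, no filter, the replicate number as a block, leaving out each library, FPKM and other member sets; TMM factors computed on summed hits were added after seeing the data. Same-numbered libraries of the media did not deviate together (correlations of 0.0311, 0.0046 and 0.0135 across clusters), so their numbers were not taken as pairs. Figures were drawn with matplotlib 3.10.9.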

Additional observations from a re-analysis of the deposited data

How the results depend on the processing

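The counts of member clusters and hits called in each direction kept within 1.5 times their values under each alternative run: 20 to 23 clusters higher and 36 to 39 lower, 7 to 9 hits higher and 14 to 16 lower. With the replicate block 20 member clusters were called higher and 38 lower, and 7 hits higher and 16 lower; of all clusters 19752 were called higher and 18877 lower, against 24723 and 21741. The block also called alcohol dehydrogenase 2 (Q0ITW7) lower, at -0.59, and did not call Cluster-2051.70043 and Cluster-2051.55256, whose calls were lost as well with DESeq2 size factors and with no filter, as was that of Cluster-2051.60468 with no filter. Every family sum kept its sign in all alternatives run on it. TMM factors computed on summed hits were run on hits and not on family sums. The D-lactate dehydrogenase hit that turned sign with them held 92.2 of its family's 92.6 CPM at 3% sucrose. With library totals the log2 ratio of 8% over 3% sucrose became 3.94 for plant hemoglobin, -1.53 for truncated hemoglobin, -0.70 for alcohol dehydrogenase, -0.99 for class-3, 1.08 for alcohol dehydrogenase-like, -1.06 for pyruvate decarboxylase and -0.15 for D-lactate dehydrogenase. The median of all clusters was 0.35 on that scale, 0.14 with DESeq2 size factors, where alcohol dehydrogenase-like became 0.87, and 0.19 in the report. In the authors' FPKM the ratio became -1.55 for truncated hemoglobin, -0.70 for alcohol dehydrogenase, -0.96 for class-3, 1.06 for alcohol dehydrogenase-like and 3.23 for L-lactate dehydrogenase. Hemoglobin over the 6 enzyme families within libraries became 4.40 on the log2 scale in FPKM and 4.81 against the core enzymes, from 4.53. Leaving out single libraries gave 3.70 to 3.80 for plant hemoglobin, -0.94 to -0.82 for alcohol dehydrogenase, -1.24 to -1.10 for class-3, 0.82 to 0.95 for alcohol dehydrogenase-like, -1.31 to -1.19 for pyruvate decarboxylase and -0.40 to -0.29 for D-lactate dehydrogenase, with the lower value in each case without replicate 3 at 3% sucrose. The D-lactate dehydrogenase hit (Q94AX4) reversed to 0.042 with TMM factors computed on summed hits, which moved the median of all hits from -0.32 to 0.03. The same factors moved pyruvate decarboxylase 1 (O82647) from -1.21 to -0.86 and the apple alcohol dehydrogenase (P48977) from -0.86 to -0.51. Cotton non-symbiotic hemoglobin 1 (Q947C5) moved from 3.80 to 4.155. The counts of calls in single lists moved most for alanine aminotransferase, with 5 higher under library totals against 2. The 38 members below the filter on low counts were not tested here, and the authors' deposited table calls 4 of them.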

Other observations

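Replicate 1 at 3% sucrose gave low values for 3 alcohol dehydrogenase clusters, which were chosen after their values were seen. At 3% sucrose Cluster-2051.74030 was at 17.5, 42.7 and 38.3 CPM, Cluster-2051.78893 at 12.5, 36.8 and 24.3 CPM and Cluster-2051.77933 at 14.5, 45.1 and 42.2 CPM. At 8% sucrose the same clusters were at 11.01, 22.0 and 28.7 CPM, at 9.27, 20.5 and 24.9 CPM and at 15.8, 18.7 and 28.8 CPM. Replicate 1 was thus the lowest in that medium too. The more abundant clusters of the family were mixed. Cluster-2051.71531 was highest in replicate 1 at 3% sucrose, at 532 CPM against 482 and 465, and so was Cluster-2051.77620, at 1096 CPM. Cluster-2051.79486 and Cluster-2051.77106 were highest there as well. Cluster-2051.78836 was lowest there, at 176 CPM against 204 and 177, as were Cluster-2051.81190, at 127 CPM, and Cluster-2051.78723, at 89.7 CPM. What sets the 3 clusters with low values apart was not tested.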
